A study of Mus musculus with 12 samples.

Results

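The core-binding factor is a transcription factor of a DNA-binding alpha subunit, Runx1, Runx2 or Runx3, and a beta subunit, Cbfb, that does not itself bind DNA. The genes described here are Cbfb, the 3 Runx genes, and Cbfa2t2 and Cbfa2t3, which encode corepressors of the ETO family. They were chosen by gene symbol and are 6 of the 23420 symbols in the deposited table. All 6 were above 0 in at least 3 of the 12 libraries and so entered the tests, with 10023 genes in all.

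Sorting had selected CD45+CD3-CD11b+MHCII+ cells of the mouse epidermis, and their RNA was counted. The 4 groups were Cbfβ2 knockout (KO) mice at 1.5 months (1.5M), wild-type (wt) mice at 1.5M, Cbfβ2 KO mice at day 5 after birth (P5) and wt mice at P5. Cbfβ2 is a splice form of Cbfb. How the knockout allele was made, in which cells it acts, the strain and any pooling of animals are not given in the sources used here. Each group had 3 libraries of 100 cells. The labels call them separate library preparations and do not say whether they came from separate animals, so the p-values measure the spread between libraries, which may be technical. In such pools, fewer cells that express a gene and less of its RNA per cell cannot be told apart.

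Cbfb raises the affinity of Runx proteins for DNA and protects them from breakdown. Runx1 is known for its role in the formation of blood stem cells, Runx2 for its role in bone, and Runx3 for its role in cytotoxic T cells and in Langerhans cells, dendritic cells that reside in the epidermis and that mice without Runx3 lack. Cbfa2t2 and Cbfa2t3 do not bind DNA directly. They are recruited by transcription factors and carry histone deacetylases, and the family takes its name from the fusion partner of RUNX1 in a human leukaemia.

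The letters TGTGGT and TGCGGT, at the core of the Runx binding motif, were looked for on both strands in the RefSeq promoters of the members (GRCm38.p6), each 250 bases before to 50 after a start site. They are shown because some genes of this family carry such motifs in their own promoters. Of 32851 promoters in the table, 22.4% held either motif and 16.8% held TGTGGT. The distal promoters of Runx1 and Runx3 each held 2 copies of TGTGGT, and the Runx2 promoter held 3 copies of TGTGGT and 1 of TGCGGT. No copy was found in the promoters of Cbfb and Cbfa2t2, in the proximal promoters of Runx1 and Runx3 or in 1 of the 2 promoters of Cbfa2t3, and the other held 1 TGCGGT. In the 3 Runx genes a pair of the TGTGGT copies, read on the other strand, stood in the longest run of letters that their promoters share, CAACCACAGAACCACAAG. The search for a shared run was chosen after the sequences were seen. It was in 4 of the 32851 promoters (0.0122%), and the fourth, of Gm16225, overlaps the distal promoter of Runx3 on the opposite strand and holds the same copy. The 30 bases around it follow, 5′ to 3′ on the strand of the gene, with the run in capitals, at chr16:92826025-92826054 on the minus strand for Runx1, chr17:44814583-44814612 on the minus strand for Runx2 and chr4:135120503-135120532 on the plus strand for Runx3.
Runx1: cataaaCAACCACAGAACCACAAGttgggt
Runx2: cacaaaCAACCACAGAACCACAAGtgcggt
Runx3: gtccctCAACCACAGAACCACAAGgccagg

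The 250 bases before the distal start of Runx3 (chr4:135120395-135120644, plus strand) and before the start of Cbfb (chr8:105170424-105170673, plus strand) are set side by side as a promoter with the motif and one without it, with both motifs in capitals on either strand. A match describes the letters only and is no measure of binding.
Runx3: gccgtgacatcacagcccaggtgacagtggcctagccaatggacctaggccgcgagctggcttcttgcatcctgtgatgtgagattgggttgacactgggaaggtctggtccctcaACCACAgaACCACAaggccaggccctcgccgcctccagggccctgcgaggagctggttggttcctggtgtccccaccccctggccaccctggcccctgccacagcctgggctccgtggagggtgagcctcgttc
Cbfb: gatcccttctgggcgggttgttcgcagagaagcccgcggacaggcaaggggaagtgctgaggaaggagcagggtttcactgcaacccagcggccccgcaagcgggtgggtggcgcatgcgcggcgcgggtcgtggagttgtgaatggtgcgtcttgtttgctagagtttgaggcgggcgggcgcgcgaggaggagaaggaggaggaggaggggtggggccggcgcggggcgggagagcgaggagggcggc

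Values are scaled molecule counts, in which each library has the same total. At 1.5M the libraries held 74620 to 77419 molecules in KO and 40254 to 51848 in wt, and at P5 they held 30913 to 51001 in KO and 34192 to 52208 in wt, so the 1.5M KO libraries were the deepest. A count of 0 over a group was read against a floor of 3 molecules, for counting error only. The floor was 0.485 scaled molecules in 1.5M KO, 0.831 in 1.5M wt, 0.907 in P5 KO, and 0.895 for P5 wt. The sort marker Ptprc (CD45) averaged 34.2, 16.2, 14.9 and 15.9 in these groups in that order, and Itgam (CD11b) averaged 11.2, 4.69, 10.01 and 4.93. H2-Ab1, of MHCII, averaged 247 in KO and 547 in wt at 1.5M, and 106 in KO and 171 in wt at P5. Of the Cd3 genes, Cd3e and Cd3g were at 0 in all 12 libraries and Cd3d was at 1.20 in 1 P5 KO library and 0 in the others. The make-up of the libraries differed between the groups. The summed level of 7 Langerhans cell markers at 1.5M was 29.3 to 42.2 in KO and 348 to 431 in wt, and at P5 it was 10.4 to 21.3 in KO and 68.0 to 73.3 in wt. That of 9 macrophage and monocyte markers was 452 to 532, 66.5 to 86.2, 161 to 192 and 131 to 167, and that of 9 keratinocyte markers was 7.19 to 18.7, 10.4 to 36.9, 200 to 613 and 59.6 to 84.1, in the same order. The sum of 7 neutrophil markers was 4.05 to 5.49 in KO and 0.193 to 8.41 in wt at 1.5M, and 47.7 to 218 in KO and 4.88 to 13.7 in wt at P5. In P5 KO it was mostly S100a8 and S100a9, at means of 52.4 and 51.6, against 1.30 and 0.474 in P5 wt. Cxcr2 went the other way at P5 (4.97 in KO, 6.80 in wt), and Mpo and Elane were at 0 in both. The sum of 7 erythroid and megakaryocyte markers was 26.9 to 50.2 in KO and 0 to 0.921 in wt at 1.5M, and 8.40 to 225 in KO and 0 to 7.82 in wt at P5. At 1.5M it was mostly Pf4, at a mean of 39.5 in KO and 0.307 in wt, with Hba-a1 and Hba-a2 at 0 in both. At P5 Hba-a1 ran from 0 to 125 in KO and from 0 to 1.42 in wt. This sum thus had different sources at the 2 ages, and its genotypes were only narrowly apart at P5 (8.40 against 7.82). The genotypes did not overlap at either age for the Langerhans cell and the erythroid and megakaryocyte sums, at 1.5M for the macrophage and monocyte sum, and at P5 for the keratinocyte and neutrophil sums. The part of these sums in the results below was not tested.

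Cbfb RNA was lower in KO than in wt libraries at 1.5M. Cbfb lies at chr8:105170674-105217989 on the plus strand (ENSMUSG00000031885.14; GENCODE M21, GRCm38). Its 4 coding transcripts share the last exon, so a count near the 3′ end takes the splice forms together and does not check the loss of Cbfβ2. The 1.5M KO libraries had 1.92, 0.994 and 2.40 scaled molecules, against 13.8, 7.15 and 10.7 in 1.5M wt. The groups did not overlap, with 11 molecules in the KO group and 37 in the wt group. The means were 1.77 ± 0.712 in KO and 10.5 ± 3.34 in wt (SD, n = 3 each). The log2 fold change was -2.05 (SE 0.39, 95% interval -2.85 to -1.25; limma adjusted p = 0.00132). It was called under all 17 alternative settings, but when the molecules were thinned to equal depth it was called in 16 of 20 draws, with adjusted p between 0.00145 and 0.201.

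At P5, Cbfb had 3.63, 1.45 and 2.40 scaled molecules in KO libraries, against 4.97, 4.34 and 3.91 in wt libraries. The groups did not overlap here either. The log2 fold change of -0.67 (SE 0.39, interval -1.47 to 0.13) did not pass the test (limma adjusted p = 0.49). The effects at the 2 ages differed by -1.38 (SE 0.55), which did not pass the test (limma adjusted p = 0.249). Averaged over both ages, Cbfb was lower in KO by a log2 fold change of -1.36 (SE 0.27, interval -1.93 to -0.80; limma adjusted p = 0.00297), which was called in 10 of 20 draws at equal depth. Within wt, the 3 libraries at 1.5M were all above the 3 at P5, with a log2 fold change of 1.06 (SE 0.39; limma adjusted p = 0.129). Within KO it was -0.32 (SE 0.39; limma adjusted p = 0.802), and the groups overlapped.

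**Figure D1:**
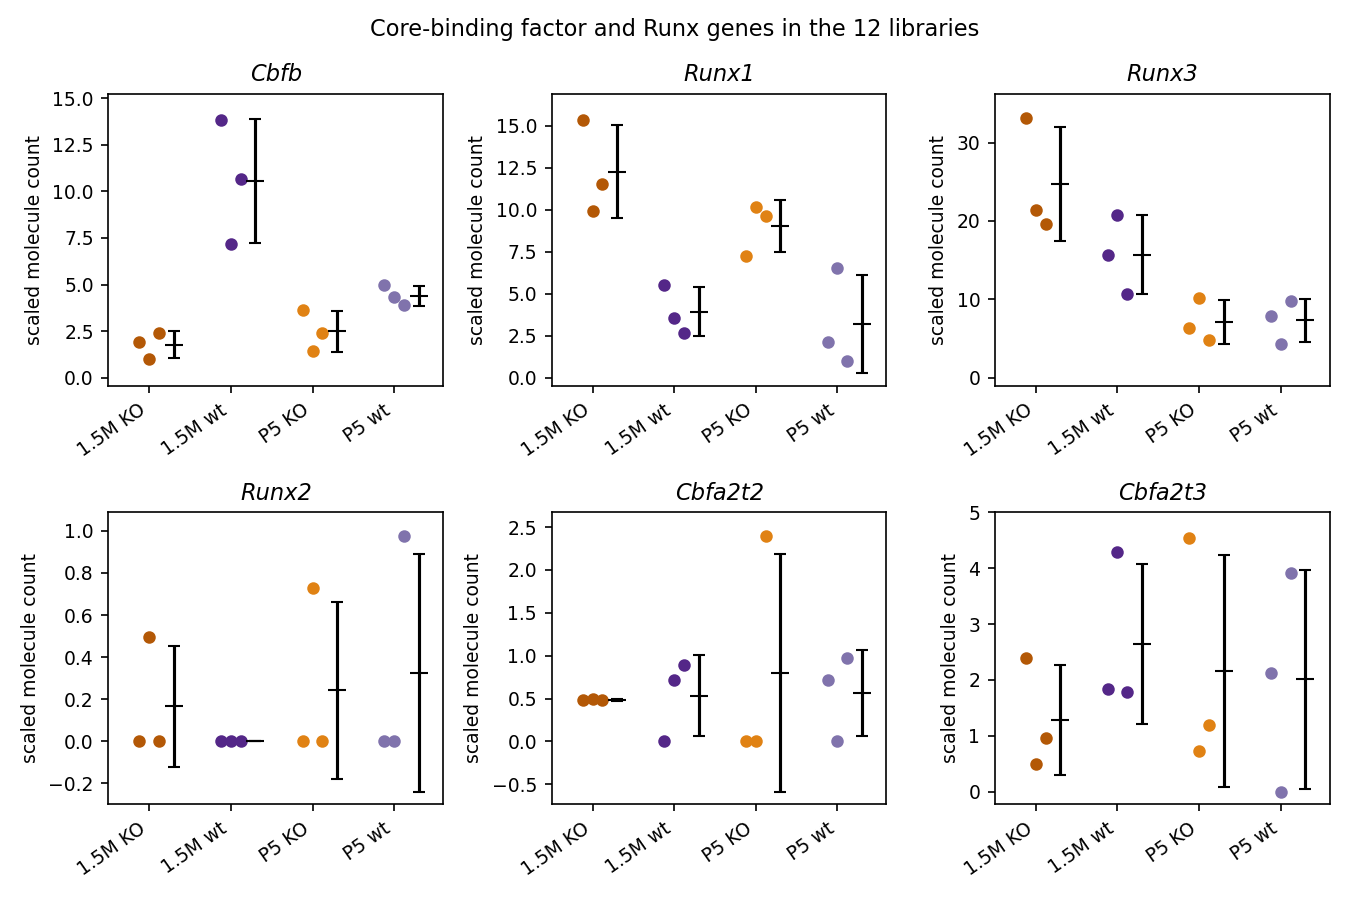
Scaled molecule counts (y axes, which differ between panels) of the 6 genes in each library (points) by group (x axes), with the mean and SD of the 3 libraries of a group in black. Cbfb was lower and Runx1 higher in KO than in wt at both ages without overlap, and Runx3 was higher at 1.5M than at P5, while Runx2 and Cbfa2t2 had only 0 to 3 molecules in a group.

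Runx1 moved in the opposite direction to Cbfb. It lies at chr16:92601466-92826149 on the minus strand (ENSMUSG00000022952.17). Of its 5 coding transcripts 3 share the last exon, among them forms that start at the distal and at the proximal promoter, so the counts do not separate the promoters. Runx1 had 15.3, 9.94 and 11.5 scaled molecules in 1.5M KO, against 5.53, 3.58 and 2.67 in 1.5M wt. At P5 it had 7.27, 10.2 and 9.60 in KO, against 2.13, 6.51 and 0.977 in wt. Every KO library was above every wt library of its age. The molecules behind these values were 76 and 14 at 1.5M and 30 and 10 at P5, KO before wt.

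The log2 fold change of Runx1 in KO was 1.45 at 1.5M (SE 0.41, interval 0.60 to 2.30; limma adjusted p = 0.0389) and 1.47 at P5 (SE 0.41, interval 0.62 to 2.32; limma adjusted p = 0.0739). Only the first passed the test, and their difference was -0.02 (SE 0.58, interval -1.22 to 1.19; limma adjusted p = 0.994). The call at 1.5M is a fragile one. It was lost without 1.5M KO replicate 1, 2 or 3 (limma adjusted p = 0.195, 0.0924 and 0.13) and without 1.5M wt replicate 2 or 3 (0.123 and 0.169), and at equal depth it was made in 2 of 20 draws. At P5 the call was gained without P5 wt replicate 2 (limma adjusted p = 0.0146). Averaged over both ages, Runx1 was higher in KO by 1.46 (SE 0.29, interval 0.86 to 2.06; limma adjusted p = 0.00274), called in 16 of 20 draws at equal depth. Between ages its log2 fold changes were 0.40 in KO and 0.41 in wt (limma adjusted p = 0.758 and 0.644).

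Runx3, with 261 molecules over the 12 libraries, was higher at 1.5M than at P5 in KO. It lies at chr4:135120652-135177990 on the plus strand (ENSMUSG00000070691.10), and its 2 coding transcripts, from 2 start sites, share the last exon. In KO it had 33.1, 21.4 and 19.6 scaled molecules at 1.5M, against 6.36, 10.2 and 4.80 at P5. In wt it had 15.7, 20.7 and 10.7 at 1.5M, against 7.82, 4.34 and 9.77 at P5. The ages did not overlap in either genotype. In KO the log2 fold change with age was 1.68 (SE 0.34, interval 0.98 to 2.38; limma adjusted p = 0.00478), against a median of -0.06 over all genes tested, and the call was lost without 1.5M KO replicate 1 (0.0583) and made in 13 of 20 draws at equal depth. In wt it was 1.02 (SE 0.34; limma adjusted p = 0.087), against a median of -0.22. Averaged over genotypes, a comparison added after the data were seen, it was 1.35 (SE 0.24, interval 0.86 to 1.84; limma adjusted p = 0.00082), called in all 20 draws at equal depth.

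Runx3 did not pass the test between genotypes. The means were 24.7 ± 7.31 in 1.5M KO and 15.7 ± 5.04 in 1.5M wt, and 7.11 ± 2.77 in P5 KO and 7.31 ± 2.75 in P5 wt (SD, n = 3 each). The log2 fold change was 0.63 at 1.5M (interval -0.07 to 1.33; limma adjusted p = 0.415) and -0.03 at P5 (interval -0.73 to 0.67; limma adjusted p = 1). The groups overlapped at both ages. Changes of up to those bounds are compatible with the data.

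Runx2 was at the limit of detection. It lies at chr17:44495987-44814797 on the minus strand (ENSMUSG00000039153.16). There were 3 molecules in all, 1 each in 1.5M KO replicate 2, P5 KO replicate 2 and P5 wt replicate 3. The 1.5M wt libraries had 0, for which the exact 95% Poisson interval over the group ran up to 1.02 scaled molecules. No fold change is given, since every group is at or under the floor of 3 molecules.

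Against the genes tested, the members' calls read as follows. By mean level Cbfb, Runx1 and Runx3 were above 87.5%, 92.3% and 96.3% of these genes, and Runx2 was above 3.16%. The shares thus rest mostly on genes lower than the members that were called. At 1.5M, 2 of 6 members passed the test between KO and wt, where 5.28% of genes did, and 2 of 6 did not overlap, where 21.1% did. At P5, 0 of 6 passed by limma, where 1.8% of genes did, and 2 of 6 did not overlap, where 12.2% did. For the mean KO effect 2 of 6 passed against 4.39% of genes, and for the difference between the KO effects 0 of 6 by limma against 2%. With age, 1 of 6 passed in KO against 3.14% and 0 of 6 in wt against 5.21%, and the mean age effect was called for 1 of 6 against 5.44%. Age groups did not overlap for 1 of 6 members in KO, against 18.1% of genes, and for 2 of 6 in wt, against 19.2%. Where limma called 0 members, an unadjusted p under 0.05 was reached by Runx1 at P5, by Cbfb for the difference, and by Cbfb and Runx3 with age in wt. Of all 10023 genes, 1278, 1332 and 1821 had such a p in these comparisons, in that order. Voom called 0 members in each of them.

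**Figure D2:**
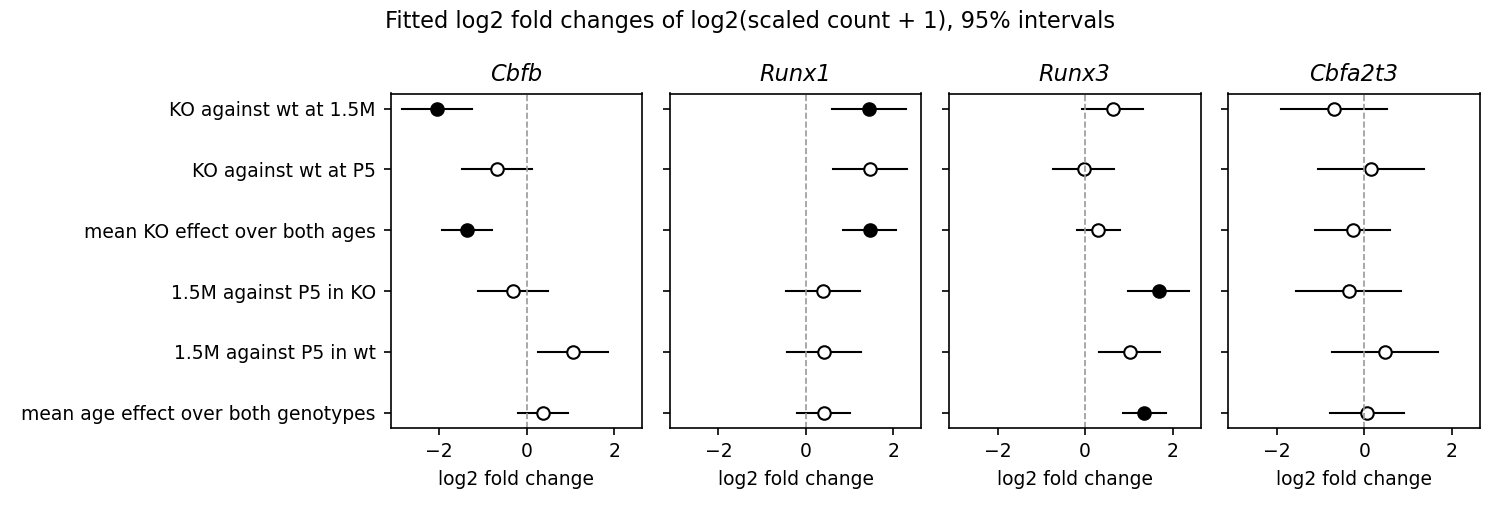
Fitted log2 fold changes (x axes) of 4 genes in 6 comparisons (rows), with 95% intervals as bars, filled where the adjusted p was under 0.05. Cbfb (-2.05) and Runx1 (1.45) were called between KO and wt at 1.5M, and Runx3 (1.68) between ages in KO.

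The balance of Runx to Cbfb molecules is given as a description, with no test. Each molecule is counted once near its 3′ end, so no length correction applies. The sum of Runx1, Runx2 and Runx3 molecules per Cbfb molecule was 25.3, 32 and 13 in 1.5M KO, against 1.53, 3.4 and 1.25 in 1.5M wt. At P5 it was 3.75, 14.5 and 6 in KO, against 2, 2.5 and 3 in wt. Every KO library was above every wt library of its age. These ratios rest on few Cbfb molecules, between 8 and 37 per group, and depend on both parts.

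Runx1 made up 31.7%, 31.2% and 36.9% of the Runx molecules in 1.5M KO, against 26.1%, 14.7% and 20% in 1.5M wt, without overlap. At P5 it made up 53.3%, 48.3% and 66.7% in KO, against 21.4%, 60% and 8.33% in wt, and the groups overlapped through P5 wt replicate 2. Pooled over libraries, the share was 33.0% of 230 molecules in 1.5M KO (exact Clopper-Pearson 95% interval 27.0% to 39.5%) and 19.4% of 72 in 1.5M wt (11.1% to 30.5%). It was 53.6% of 56 in P5 KO (39.7% to 67.0%) and 27.8% of 36 in P5 wt (14.2% to 45.2%). The intervals cover counting error only.

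**Figure D3:**
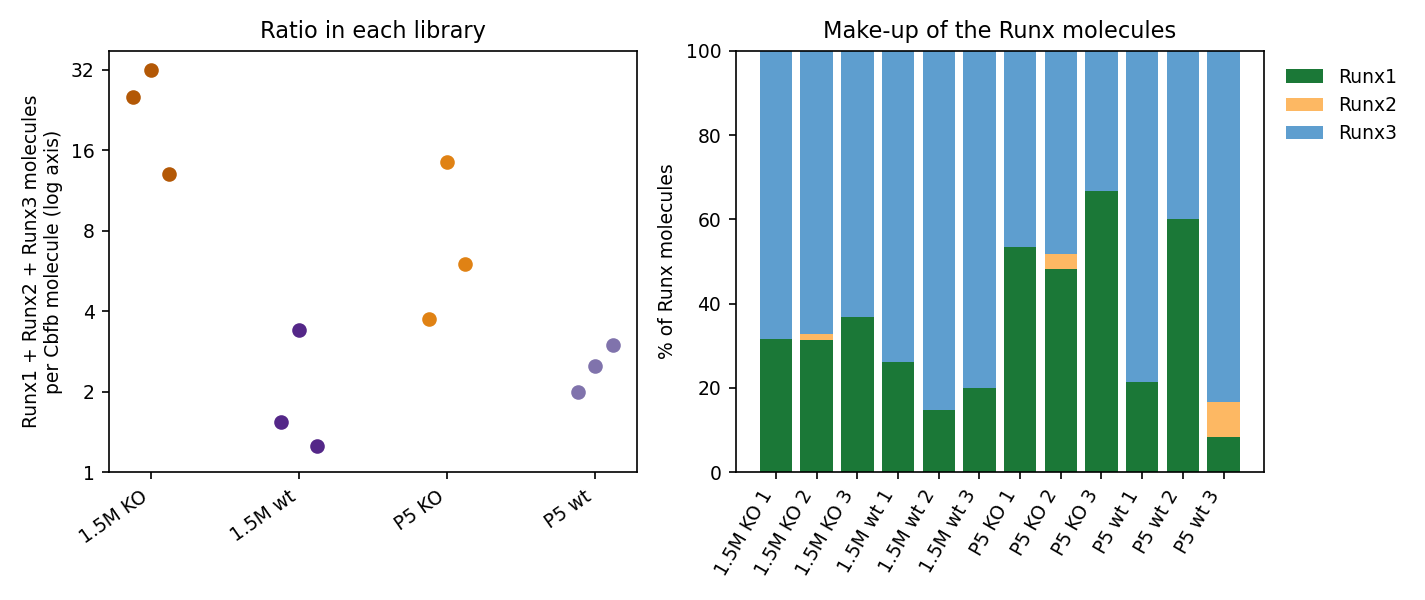
Left, Runx1, Runx2 and Runx3 molecules per Cbfb molecule in each library (log axis) by group. Right, the percent of Runx molecules from each gene in each library. The ratio was 13 to 32 in 1.5M KO and 1.25 to 3.4 in 1.5M wt.

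Neither corepressor gene separated the groups. The mean of Cbfa2t3 over the 12 libraries, 2.02 scaled molecules, was above the median of 1.15 over the genes tested, and that of Cbfa2t2, 0.596, was below it. Cbfa2t3 lies at chr8:122625141-122699109 on the minus strand (ENSMUSG00000006362.16). It had 2.40, 0.497 and 0.958 scaled molecules in 1.5M KO, against 1.84, 4.29 and 1.78 in 1.5M wt, and 4.54, 0.727 and 1.20 in P5 KO, against 2.13, 0 and 3.91 in P5 wt. The groups overlapped at both ages. The log2 fold changes of -0.69 at 1.5M and 0.15 at P5 did not pass the test (limma adjusted p = 0.696 and 0.967). Its last 1000 bases overlap Gm20388 on the opposite strand, and the use of strand was not given, so reads of the 2 cannot be told apart. Cbfa2t2 lies at chr2:154436481-154539356 on the plus strand (ENSMUSG00000038533.15). It had 3 molecules in KO and 2 in wt at 1.5M, and 2 in each genotype at P5, too few for a fold change.

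Genes that work with the core-binding factor were taken from lists chosen with earlier results of these data known. Among corepressors and co-activators of Runx and ETO proteins, 0 of 16 tested genes passed the test in any of the 7 comparisons by limma, with a median log2 fold change of -0.01 at 1.5M and 0.07 at P5 in KO, against 0.09 and -0.01 over all genes. At an unadjusted p under 0.05 there were 2 genes at 1.5M (Tle1 and Tle2, both Groucho-type corepressors) and 0 at P5, where 1492 and 1278 of all 10023 genes had such a p. Voom called the same 2 at 1.5M and 0 at P5. Over the 7 comparisons voom called at most 2 of the 16, and these genes were named after their values were seen.

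Among 15 tested transcription factors that partner Runx proteins or sit in the Cbfa2t3 complex, 2 rose in KO at 1.5M, 1 rose at P5 and 0 fell by limma at either age. Over all 10023 genes tested, 325 rose and 204 fell at 1.5M, and 115 rose and 65 fell at P5, so 0 of 15 falling is near the background. An unadjusted p under 0.05 was reached by 5 of the 15 at 1.5M and 6 at P5, and voom called 5 and 1. Of the 10023 genes, 1492 at 1.5M and 1278 at P5 had such a p. Voom also called more of all genes than limma at 1.5M, as given at the end, and its share at P5 is not given here. Cebpa, a factor of myeloid differentiation, averaged 11.5 ± 3.80 scaled molecules in 1.5M KO and 0.307 ± 0.532 in 1.5M wt (SD, n = 3 each), with a log2 fold change of 3.28 (SE 0.37; limma adjusted p = 2.27e-06). Lmo4, a LIM-only adaptor protein, averaged 7.40 ± 4.48 in 1.5M KO and 0.603 ± 0.523 in 1.5M wt, with a log2 fold change of 2.32 (SE 0.41; limma adjusted p = 0.000738). Both calls were made under all 17 settings. With age in wt, Cebpa, Lmo4 and Tcf4 fell, 3 of the 15, where 285 of the 10023 genes fell. The call of Lmo4 was lost with a pseudocount of 10 (0.0873), and that of Tcf4 in 4 of 6 fits that left out 1 library (up to 0.0994). At P5 the gene that rose was Gata3, at 5.45, 0.727 and 2.40 scaled molecules in KO libraries and 0 in the 3 wt libraries (limma adjusted p = 0.0312). Its KO mean was 3.20-fold the wt floor of 0.895. That ratio leaves out the counting error of the KO mean, so it is no lower bound. The call was lost in 5 of 6 fits that left out 1 library (up to 0.107). The ETS factor Fli1 passed for the mean KO effect (limma adjusted p = 0.0377) and lost that call in 9 of 12 such fits (up to 0.152).

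Among 12 tested genes of Runx stability and turnover, Nedd4, an E3 ubiquitin ligase, was the 1 gene called in KO at 1.5M, where 5.28% of all genes were. It had 0 molecules in the 3 KO libraries, against 13.8, 12.9 and 17.8 scaled molecules in wt libraries (limma adjusted p = 2.06e-07). The 1.5M wt mean was 30.6-fold the 1.5M KO floor of 0.485. At P5 Nedd4 averaged 3.32 ± 0.516 in KO and 1.16 ± 0.232 in wt. With age it fell in KO (limma adjusted p = 0.00206) and rose in wt (limma adjusted p = 3.6e-05), both called under all 17 settings. The P5 KO mean was 6.84-fold the 1.5M KO floor. Both ratios leave out the counting error of the mean.

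Among 11 tested genes with described Runx binding, 1 fell in KO at 1.5M and 0 passed at P5 by limma, against 5.28% and 1.8% of all genes. At 1.5M 5 had an unadjusted p under 0.05 and voom called 4, Itgal, Itgax, Ccl5 and Csf2rb, and at P5 4 did and voom called 2, Ccl3 and Ccl5. Of all 10023 genes, 1492 at 1.5M and 1278 at P5 had such a p, and voom called more of them than limma at 1.5M. The voom share at P5 is not given here. Csf2rb, the shared receptor chain for GM-CSF, averaged 8.44 in 1.5M KO and 23.6 in 1.5M wt, with a log2 fold change of -1.37 (SE 0.29; limma adjusted p = 0.0045), and at equal depth the call was lost (0.057). Itgax, which encodes CD11c, was called with age in KO, at 34.3 at 1.5M and 5.14 at P5 (log2 fold change 2.60, SE 0.32; limma adjusted p = 1.69e-05). Cdkn1a, an inhibitor of the cell cycle, was called with age in wt, at 38.2 at 1.5M and 6.81 at P5 (log2 fold change 2.51; limma adjusted p = 3.6e-05). The calls of Csf1r and Ccl3 with age in KO, of Itga4 with age in wt, and of Ccl3, Ccl5 and Csf2rb for the mean KO effect were each lost in 4 or more of the fits that left out 1 library.

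**Figure D4:**
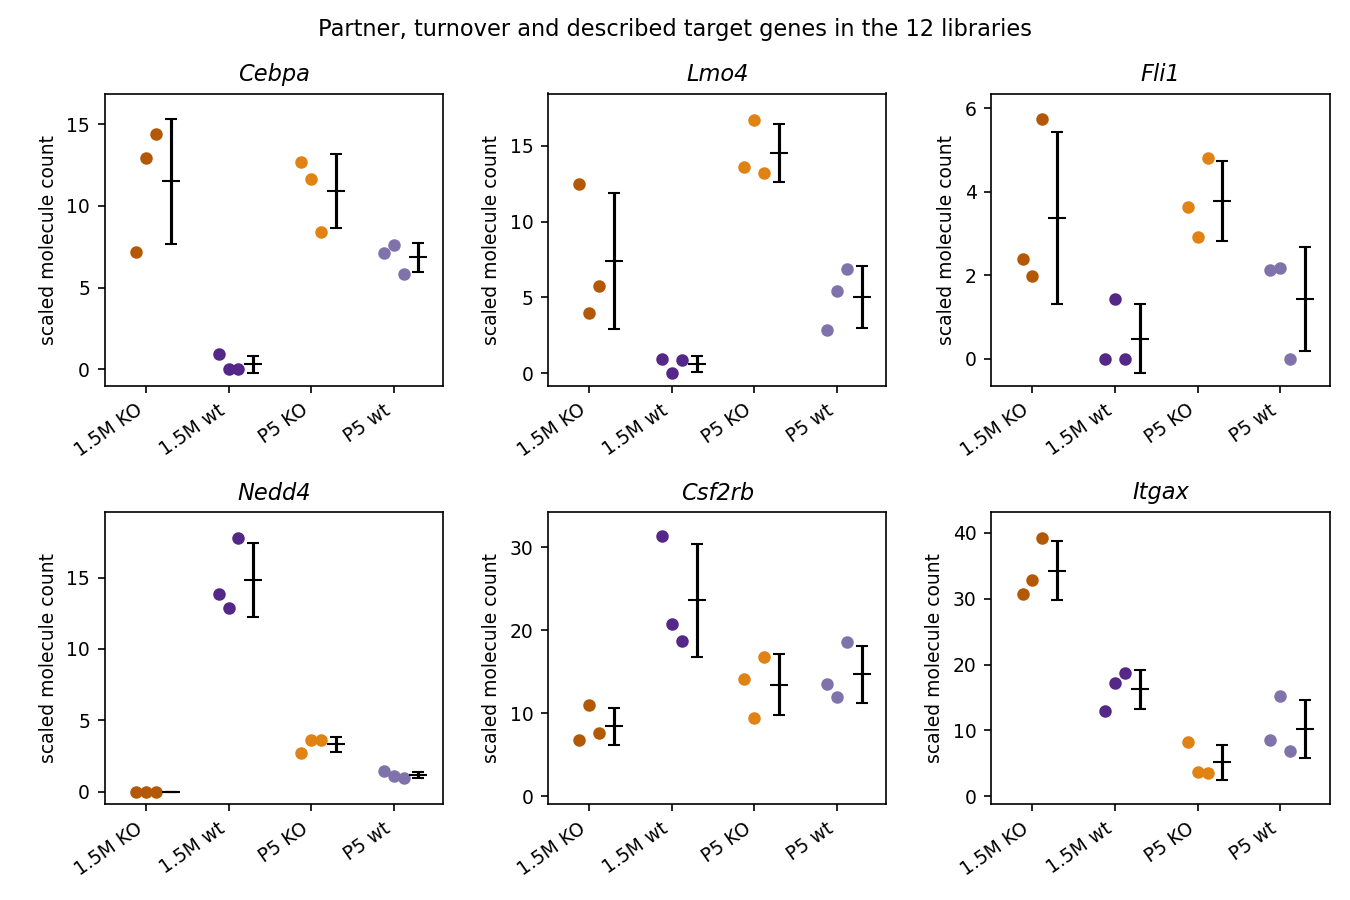
Scaled molecule counts (y axes, which differ between panels) of 6 partner, turnover and described target genes in each library (points) by group (x axes), with the mean and SD of 3 libraries in black. Cebpa was near 0 in 1.5M wt libraries alone and Nedd4 was at 0 in the 3 libraries of 1.5M KO.

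Genes whose scaled counts followed a member most closely over the 12 libraries are given by Pearson's r, as a description, since the libraries share groups and depth. For Cbfb they were the tight-junction gene Cldn1 (r = 0.93), the protease inhibitor Cst3 (0.89) and the adhesion gene Epcam (0.88). Cldn1 and Epcam are also among the Langerhans cell markers summed above. Cldn1 averaged 0.320 in KO and 56.8 in wt at 1.5M, and 2.99 in KO and 11.95 in wt at P5. For Runx1 they were Entpd1, the ectonucleotidase CD39 (0.87), Cadm1 (0.87) and Actg1 (0.83), and Entpd1 averaged 10.4, 1.69, 6.47 and 2.25 in the same order. For Runx3 they were the stress factor Atf3 (0.86) and the integrin chain Itgb2 (0.84), and Itgb2 averaged 10.7, 5.12, 3.38 and 2.77. For Cbfa2t3 they were Use1 (0.79), Ncf1 (0.71) and Clk1 (0.68), and for Cbfa2t2, on 9 molecules in all, Psmd14 (0.80), Ube2n (0.76) and Psenen (0.75).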

How the data were processed

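Gene expression was measured in 12 libraries of 4 groups of 3, by oligo-dT priming with molecular barcodes, per the labels' protocols. Per the submitters' processing notes, reads were handled with TopHat2 and mm10. The sources used here do not give the counting, annotation and scaling steps. The authors deposited 1 table of signal values by gene symbol, which the values show to be molecule counts scaled to a total of 37092 per library. In each library 92.6% to 94.9% of values above 0 were whole multiples of 1 step (tolerance 0.01), under the limit of 95%, so no count test was used and molecule numbers are approximate. Scaling by spike-in RNA was not tried, as no gene symbol of the table names it.

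Genes above 0 in at least 3 of 12 libraries were analysed as log2(scaled count + 1), which understates changes of low genes, with limma 3.58.1 in R 4.3.3 (4 group means, mean-variance trend, two-sided, Benjamini-Hochberg over 10023 genes, threshold 0.05). The fit was tested on simulated data. A first pass rule on how many changed genes were recovered failed, and was replaced after that by a rule on direction, size and false calls over repeated draws, which passed. Most simulated 2-fold changes and many 4-fold changes were not called, so a gene that did not pass the test may still differ by such amounts. Members, lists and comparisons were chosen with earlier results of these data known. The named genes are list members past the threshold and the 3 genes most like each member, among those averaging at least 5, of which 1 is not reported here. Alternatives covered pseudocount, filter, scaling, thinning, voom and leaving out each library.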

Additional observations from a re-analysis of the deposited data

Results flagged for a closer look

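For 5 genes named with the members, the KO effect differed between the ages by the test of the difference itself (limma), given as log2 fold changes at 1.5M minus P5. Of all 10023 genes, 2% were called so. Cldn1 and Cst3 were named because they followed Cbfb over these same libraries, and the other 3 because they passed the threshold in a comparison of them. The p-values below are therefore of genes chosen on the same values and are a description only. Cebpa differed by 2.69 (SE 0.52; limma adjusted p = 0.00512), with KO effects of 3.28 at 1.5M and 0.59 at P5, and the call was lost with a pseudocount of 10 (0.0657). Nedd4 differed by -4.97 (SE 0.55; limma adjusted p = 5.18e-06), with effects of -3.97 and 0.998, the first fitted against a group at 0 and so no bound. Itgax differed by 1.92 (SE 0.45; limma adjusted p = 0.0236), with effects of 1.04 and -0.88, and the call was lost in 7 of 12 fits that left out 1 library (up to 0.106). Cldn1 differed by -3.72 (SE 0.49; limma adjusted p = 7.4e-05), with effects of -5.48 and -1.76. Cst3 differed by -0.76 (SE 0.16; limma adjusted p = 0.0087), with effects of -1.75 and -0.99, and the call was lost under TMM scaling (0.0698) and quantile normalization (0.577). None of the 6 members differed in this way.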

How the results depend on the processing

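Thinning to equal depth is random, and 2 single draws gave different calls for Runx1 and Cbfb. It was therefore repeated over 20 draws, a number chosen after seeing the data, and the median is given. Genes called in KO against wt at P5 were 180, and 92 with a pseudocount of 0.1, 118 with no filter, 114 with TMM and 89 thinned (32 to 102 over draws). At 1.5M they were 529, and 865 with voom. With age they were 522 in wt, and 283 thinned, and 315 in KO, and 195 thinned and 910 with voom. For the difference between KO effects they were 200, and 133 with a pseudocount of 0.1, 107 thinned and 348 with voom. The mean KO effect gave 440, and 264 thinned, and the mean age effect 545, and 304 thinned and 1224 with voom. Leaving out 1 library gave 74 to 154 at P5, 336 to 412 at 1.5M, 365 to 395 with age in wt, 143 to 269 with age in KO, 115 to 198 for the difference, 319 to 430 for the mean KO effect and 330 to 537 for the mean age effect. The causes were not tested. DESeq2 was not run, because the deposited values are scaled and the share of whole molecule numbers over all genes was under the limit set for a count model.

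Directions that turned were all of values that did not pass the test. Runx3 in KO at P5 (-0.03) was 0.048 with median-of-ratios scaling, 0.017 with voom and -0.32 to 0.19 leaving out 1 library. The difference between KO effects of Runx1 (-0.02) was 0.13 with a pseudocount of 10, 0.19 with TMM, 0.12 thinned and -0.55 to 0.42 leaving out 1 library. Leaving out 1 library, Runx1 with age in wt ran from -0.019 to 0.94, and Cbfa2t3 from -0.51 to 0.64 at P5, -0.18 to 0.97 with age in wt, -0.70 to 0.14 with age in KO and -0.27 to 0.31 for the mean age effect, which was -0.0087 with a pseudocount of 10. Runx1 at 1.5M also lost its call with a pseudocount of 0.1 (limma adjusted p = 0.109), with no filter (0.052), under quantile normalization (0.0633) and thinned (0.108), 8 of 17 settings keeping it. TMM moved the median of all genes with age in KO by 0.17.

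The mean of its group was first taken from each log2 value, for genes averaging at least 5. What was left correlated at -0.05 to 0.11 between same-numbered libraries of different groups, so no pairing by number was seen. A weak pairing could still be missed. The spread within P5 wt was near counting error (chi-square per degree of freedom 1.17 to 1.27). That within P5 KO was above it (1.74 to 2.02), and over all groups the range was 1.17 to 2.18. With the replicate block, 147 genes were called at P5, 508 at 1.5M, 504 and 315 with age in wt and KO, 195 for the difference, 416 for the mean KO effect and 536 for the mean age effect, and no member's call changed. Low counts limit Runx2, Cbfa2t2 and Cbfa2t3 most.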
